A study of Mus musculus with 21 samples.

Results

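The nuclear lysine tRNAs of mouse brain were followed across genotype and tissue, row by row and as the summed pools of both lysine anticodons, CTT and TTT. Members were all rows of the tRNA count tables named Lys- followed by an anticodon, leaving out the mitochondrial row. The cerebrum table held 12 of them among 209 rows, 8 with CTT and 4 with TTT, and the cerebellum table held 11 among 208, 7 with CTT and 4 with TTT; 11 stood in both tables, and Lys-CTT-7-1 was used in cerebrum alone. A row is an isodecoder, a tRNA sequence or a small set of near-identical genes that shares its anticodon with other rows. The mice were C57BL/6J animals with a Polr3a mutation, against wildtype animals of the same strain, all fed ad libitum. Both genotypes had been given tamoxifen at postnatal day 28, which in the mutants starts recombination at Polr3a, and tissue was frozen at day 42. There were 5 mutant and 6 wildtype libraries of cerebellum and 4 mutant and 6 wildtype libraries of cerebrum, all made by QuantM-tRNA-seq, which makes sequencing libraries from tRNA. The sources used here do not give the mutant allele, the Cre driver or the cell types in which it acts. Nor do the labels state whether each library is from its own animal; the p-values measure the spread between libraries, which may be technical. A tRNA library holds no mRNA of Polr3a and no cell type markers, so neither the mutation nor the tissue could be checked in these counts.

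Polr3a codes for the largest subunit of RNA polymerase III, which transcribes nuclear tRNA genes from promoter elements inside the gene itself. The tRNAs with a CTT anticodon read the lysine codon AAG and those with TTT read AAA; the TTT tRNAs carry a thiolated wobble uridine made with the Elongator complex, whose loss is known to harm neurons. Variants of RNA polymerase III subunits cause leukodystrophies in people, and cerebellar disease is a common part of them. In RefSeq's annotation of GRCm38.p6, the build also called mm10, 24 genes were annotated as nuclear tRNA-Lys with CTT, spread over 12 chromosomes, and 2 with TTT, all of 73 bases. Both TTT genes lie on chromosome 13, n-TKttt23 at chr13:21907940-21908012 and n-TKttt22 at chr13:21971788-21971860. The count tables hold 4 rows with TTT, more than these 2 genes, so this annotation does not hold a gene for each row. RefSeq's gene names are not paired with the isodecoder names of the count tables, so no row was given a position or a sequence. Mitochondria have a lysine tRNA gene of their own, mt-Tk, at chrM:7700-7764 on the plus strand (mm10, GENCODE M21), which RNA polymerase III does not transcribe. It is shown because its row, Lys-TTT-MT, shares the TTT anticodon and was counted apart from the nuclear rows. Capitals mark the anticodon, bases 27 to 29 of 65, in the gene sequence 5′ to 3′.
mt-Tk: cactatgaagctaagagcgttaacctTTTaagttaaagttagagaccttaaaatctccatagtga

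Total counts were 4365247 to 7614658 per library in cerebrum. The cerebellum libraries fell into a shallow class of 1628057 to 2286338 counts, with mutant 1 and wildtype 1, 2, 3, 4 and 6, and a deep class of 4884664 to 7158467 counts, with mutants 2 to 5 and wildtype 5. In cerebellum, depth and genotype thus ran largely together. Levels are given as CPM after TMM scaling, which sets each tRNA against the whole pool of its library; shares within an anticodon do not depend on that scaling. Near-identical isodecoders can share reads, which makes their separate counts uncertain. In bulk tissue, fewer cells of a type and less tRNA per cell cannot be told apart.

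Lysine tRNAs took similar parts of the nuclear tRNA counts in both genotypes. In cerebellum the share of nuclear counts was 10.7%, 8.99%, 7.19%, 10.4% and 15.7% in mutants 1 to 5, against a lowest of 10.5%, a median of 11.0% and a highest of 11.3% in wildtype libraries. In cerebrum it was 14.7%, 12.7%, 10.9% and 11.7% in mutants 1 to 4, against a lowest of 11.0%, a median of 12.3% and a highest of 13.8% in wildtype. The groups overlapped in both tissues, and the spread was wider among the cerebellum mutants (10.6% ± 3.18, SD, n = 5) than among the cerebellum wildtype libraries (11.0% ± 0.293, SD, n = 6); that difference in spread was not tested.

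A single row carried nearly the whole Lys-TTT pool. Lys-TTT-1 held 96.7% ± 0.472 (SD, n = 5) of Lys-TTT counts in cerebellum mutants and 96.3% ± 0.360 (SD, n = 6) in cerebellum wildtype, Lys-TTT-2 was the next with a few percent, and Lys-TTT-3-1 and Lys-TTT-5-1 were rare, the highest library reaching 0.474% for Lys-TTT-3-1. The Lys-CTT pool was divided mainly between Lys-CTT-3, at 72.3% ± 4.02 in cerebellum mutants and 71.4% ± 1.89 in cerebellum wildtype, and Lys-CTT-2, at 25.4% ± 4.10 in cerebellum mutants and 26.4% ± 1.80 in cerebellum wildtype (SD, n = 5 and 6). Lys-CTT-4-1 supplied 2.21% ± 0.636 of Lys-CTT in cerebellum mutants and 2.08% ± 0.215 in cerebellum wildtype (SD, n = 5 and 6). The remaining rows, Lys-CTT-1-1, Lys-CTT-6-1, Lys-CTT-14-1, Lys-CTT-5-1 and Lys-CTT-7-1, reached at most 29.7 CPM in any library. The 95% Wilson intervals on these shares reached at most 0.487 percentage points on either side; they cover counting error only, and reads without molecular identifiers are not independent molecules.

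**Figure D1:**
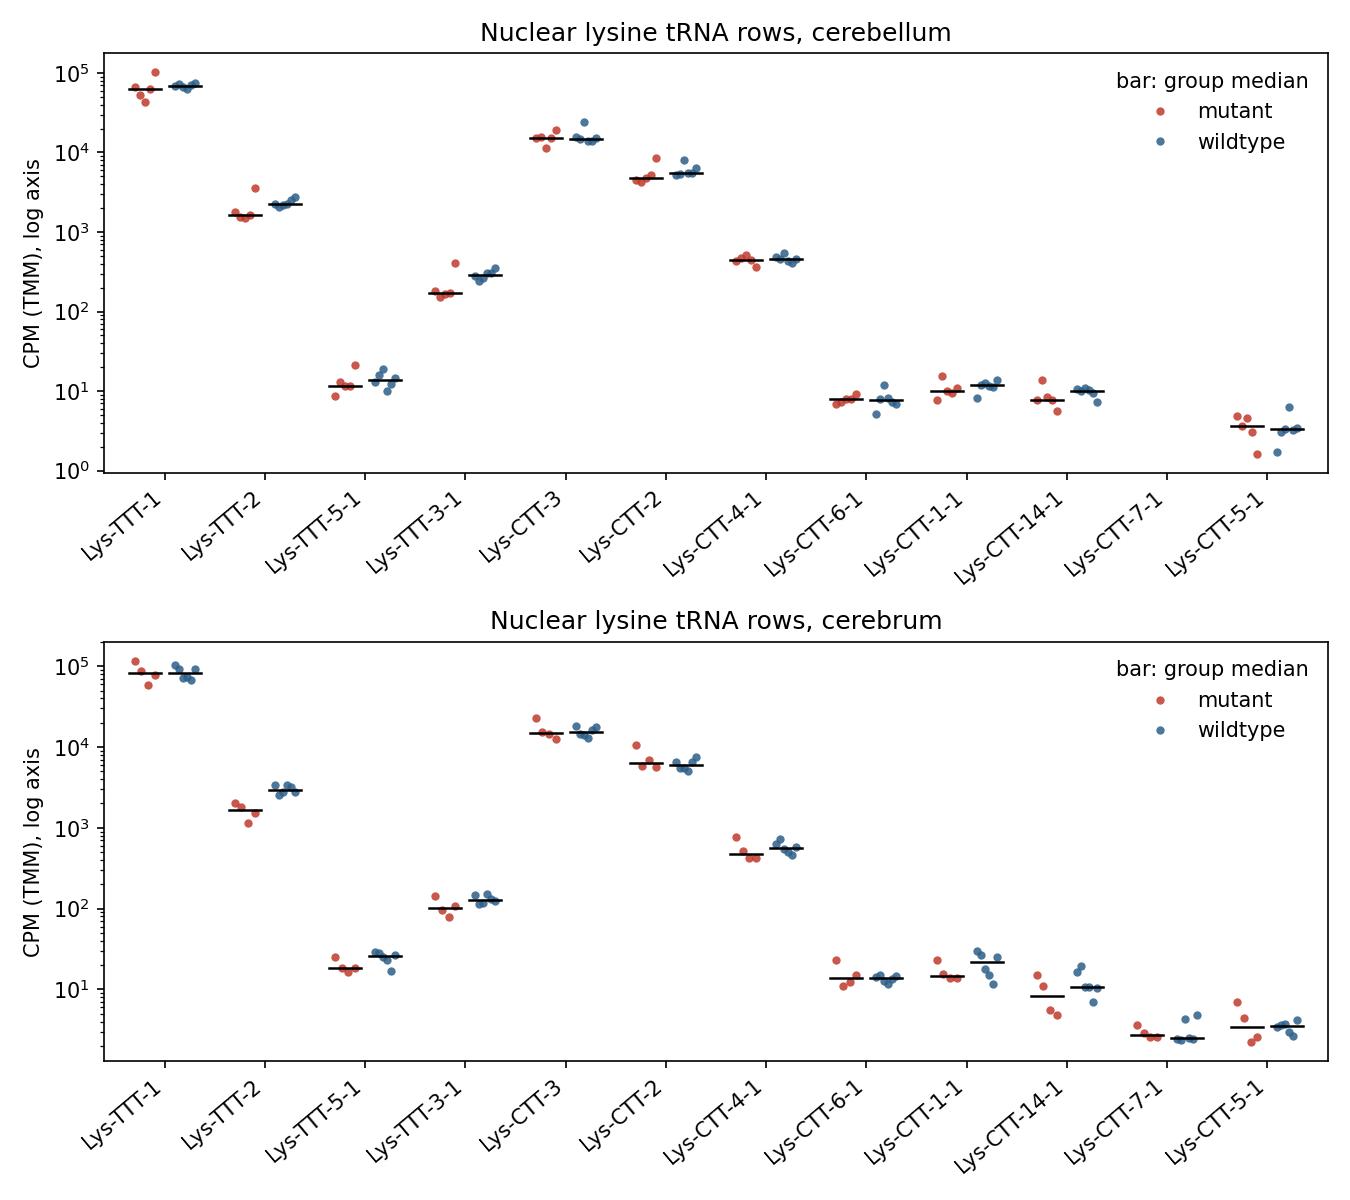
Each point is a library, with its level in CPM after TMM scaling within a tissue on a log axis; columns are the nuclear lysine rows, mutants stand left of wildtype, and bars are group medians. Lys-TTT-1 lies highest in both tissues, and Lys-TTT-2 in cerebrum is the row in which all 4 mutants (1138 to 2021 CPM) sit below all 6 wildtype libraries (2515 to 3410 CPM).

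In cerebrum, Lys-TTT-2, the second TTT isodecoder, fell in mutants, and none of the other 11 lysine rows passed the test. Lys-TTT-2 had 2021, 1811, 1138 and 1515 CPM in mutants 1 to 4, against a lowest of 2515, a median of 2978 and a highest of 3410 CPM in wildtype. Every mutant lay below every wildtype library. The log2 difference was −0.88 ± 0.15 (SE; 95% interval −1.20 to −0.57; edgeR's quasi-likelihood F test, adjusted p = 0.000246 by Benjamini-Hochberg over all rows). The count of 1 lower among 12 lysine rows stands beside 11.5% lower and 19.7% in either direction among all 208 rows tested, so the number of calls among lysine tRNAs was not above that of the whole table. The median difference of the 12 lysine rows was −0.11, against −0.03 over all rows. Leaving out any library kept the call, with log2 differences of −0.96 to −0.75 (adjusted p = 2.19e-05 to 0.00194).

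The major TTT isodecoder did not show the fall of Lys-TTT-2. Lys-TTT-1 had 116606, 88108, 58531 and 77716 CPM in cerebrum mutants 1 to 4, against a lowest of 66925, a median of 82951 and a highest of 103633 CPM in wildtype. The groups overlapped, and the log2 difference was 0.03 ± 0.18 (SE; 95% interval −0.34 to 0.41; edgeR adjusted p = 0.929). Both rare TTT rows lay lower without passing. Lys-TTT-3-1 had 143, 96.5, 78.3 and 107 CPM in mutants 1 to 4, against a lowest of 114, a median of 127 and a highest of 152 CPM in wildtype (log2 difference −0.30 ± 0.17 SE, edgeR adjusted p = 0.226). Lys-TTT-5-1 had 25.3, 18.3, 16.6 and 18.2 CPM in mutants 1 to 4, against a lowest of 16.8, a median of 25.9 and a highest of 29.0 CPM in wildtype (−0.34 ± 0.20 SE, edgeR adjusted p = 0.258). For each of these rare rows, at least 1 mutant lay within the wildtype range.

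The make-up of the Lys-TTT pool in cerebrum differed accordingly. Lys-TTT-2 was 1.70%, 2.01%, 1.90% and 1.91% of Lys-TTT counts in mutants 1 to 4, against a lowest of 2.67%, a median of 3.44% and a highest of 4.50% in wildtype. The mutant shares were tightly grouped (1.88% ± 0.130, SD, n = 4), wildtype shares were more spread (3.55% ± 0.777, SD, n = 6), and the groups did not overlap. The log2 ratio of Lys-TTT-2 to the other TTT rows differed by −0.92 ± 0.15 (SE; limma adjusted p = 0.000733). Lys-TTT-1 mirrored it, at 98.0% ± 0.128 of Lys-TTT in mutants and 96.3% ± 0.806 in wildtype libraries (SD, n = 4 and 6) (0.88 ± 0.15 SE, limma adjusted p = 0.000867). Since the shares of a pool add up to 100%, these 2 calls are a single change seen from both sides; edgeR's diffSpliceDGE, which sets each row against the fit of its whole anticodon, called Lys-TTT-2 (−0.62, adjusted p = 1.26e-05) and not Lys-TTT-1 (0.02, adjusted p = 0.996). The 2 calls among 12 lysine rows compare with 47.2% called in either direction among the 178 rows whose share was tested.

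**Figure D2:**
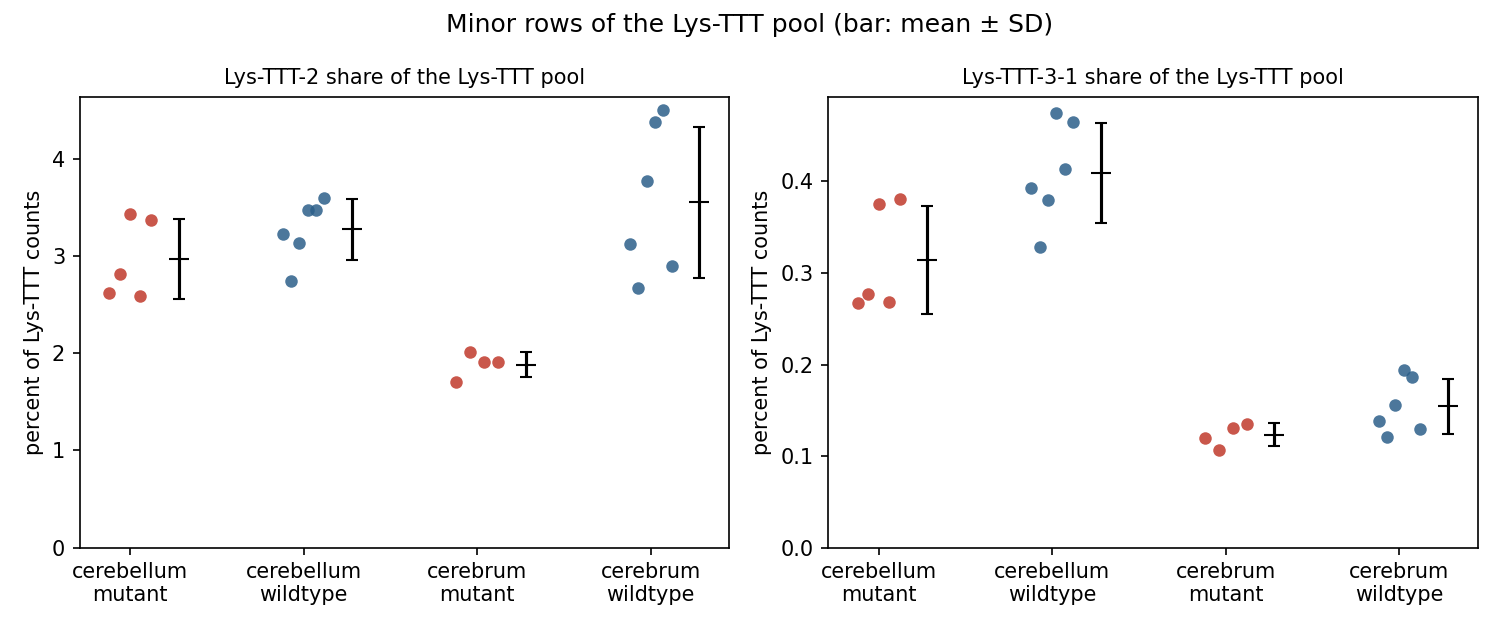
Points are libraries, with the percent of Lys-TTT counts held by Lys-TTT-2 (left) and by Lys-TTT-3-1 (right) in each tissue and genotype, and bars are the mean ± SD. Lys-TTT-2 is lowest in the cerebrum mutants (1.70% to 2.01%), and Lys-TTT-3-1 is higher in all cerebellum libraries than in all cerebrum libraries.

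Among the CTT rows of cerebrum no level passed. Lys-CTT-3, the main CTT isodecoder, had 23025, 15292, 14611 and 12457 CPM in mutants 1 to 4, against a lowest of 12782, a median of 15464 and a highest of 18286 CPM in wildtype (log2 difference 0.07 ± 0.16 SE, edgeR adjusted p = 0.832). Lys-CTT-2 had 10476, 5790, 6813 and 5716 CPM in mutants 1 to 4, against a lowest of 5058, a median of 6009 and a highest of 7544 CPM in wildtype (0.24 ± 0.16 SE, edgeR adjusted p = 0.314). In both rows mutant 1 stood above all wildtype libraries and the other mutants lay within or just below the wildtype range. The other CTT rows differed by −0.43 (Lys-CTT-14-1) to 0.25 (Lys-CTT-5-1) on the log2 scale, and their counts were as low as 10 reads in a library.

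Within the CTT pool of cerebrum, Lys-CTT-2 made up 30.5%, 26.8%, 31.1% and 30.7% in mutants 1 to 4, against a lowest of 25.4%, a median of 27.4% and a highest of 29.0% in wildtype. Mutants 1, 3 and 4 lay above all wildtype libraries and mutant 2 among them. The log2 ratio differed by 0.17 ± 0.07 (SE; limma adjusted p = 0.0575) and so did not pass. Without mutant 2 it was 0.24 (limma adjusted p = 0.00592) and without wildtype 6 it was 0.20 (limma adjusted p = 0.0371), so single libraries decided this call. Lys-CTT-3 gave the opposite difference, −0.14 ± 0.06 (SE; limma adjusted p = 0.0989), and −0.20 without mutant 2 (limma adjusted p = 0.0104).

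The anticodon sums of cerebrum did not differ beyond their spread. The Lys-TTT sum was 109540, 88027, 57982 and 79446 CPM in mutants 1 to 4, against a lowest of 72023, a median of 88517 and a highest of 105677 CPM in wildtype (log2 difference −0.07 ± 0.16 SE; 95% interval −0.40 to 0.25; edgeR adjusted p = 0.898). The Lys-CTT sum was 31665, 21156, 21230 and 18658 CPM in mutants 1 to 4, against a lowest of 19317, a median of 22618 and a highest of 26136 CPM in wildtype (0.02 ± 0.13 SE; 95% interval −0.25 to 0.30; edgeR adjusted p = 0.940). None of the 2 lysine sums passed, with 11.1% of all 72 sums called; neither had an unadjusted p under 0.05, and DESeq2 called none of the 2. Lys-CTT was 22.4%, 19.4%, 26.8% and 19.0% of all lysine counts in mutants 1 to 4, against a lowest of 18.1%, a median of 20.2% and a highest of 25.0% in wildtype (log2 CTT to TTT ratio 0.10 ± 0.15 SE; 95% interval −0.22 to 0.42; limma adjusted p = 0.543; 5.13% of 39 anticodons called).

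**Figure D3:**
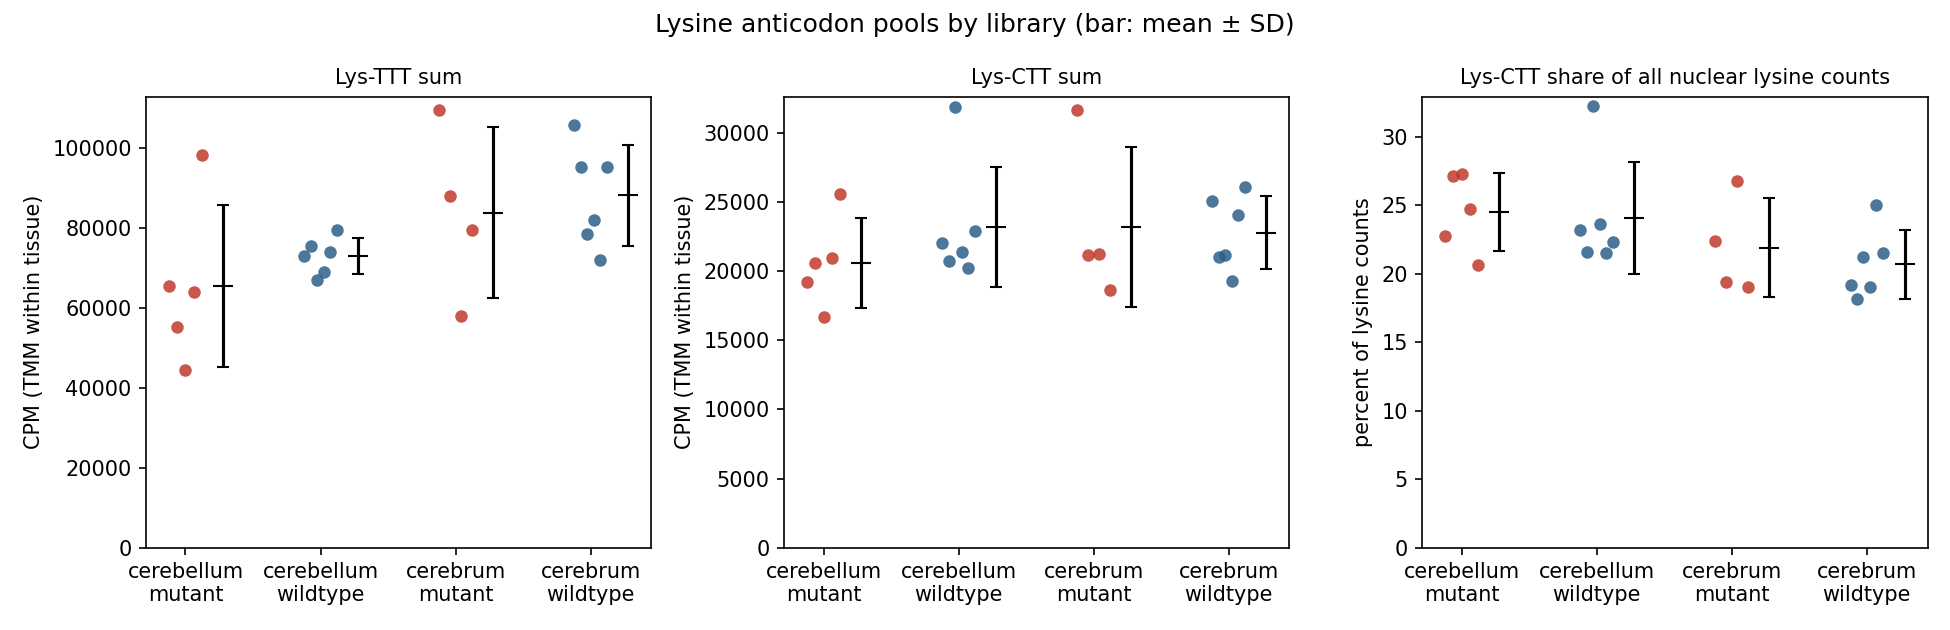
Points are libraries: CPM of the Lys-TTT sum, CPM of the Lys-CTT sum, both scaled within a tissue, and the percent of lysine counts held by Lys-CTT, by tissue and genotype, with bars for the mean ± SD. Mutants and wildtype overlap in each panel and tissue; cerebellum mutant 5 has 98230 CPM of Lys-TTT and cerebellum wildtype 3 has 32.3% Lys-CTT.

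In cerebellum no lysine row passed; 9 of 10 tested lay below 0, as did 112 of all 202 rows. The tested set left out Lys-CTT-5-1, which failed the filter on low counts. edgeR called 2.48% of all 202 rows, no lysine row had an unadjusted p under 0.05, and DESeq2 also called none. Lys-TTT-2 had 1790, 1535, 1520, 1659 and 3595 CPM in mutants 1 to 5, against a lowest of 2048, a median of 2265 and a highest of 2762 CPM in wildtype. Mutants 1 to 4 lay below all wildtype libraries and mutant 5 above all of them. The log2 difference was −0.21 ± 0.20 (SE; 95% interval −0.64 to 0.22; edgeR adjusted p = 0.648) with all libraries and −0.50 without mutant 5 (edgeR adjusted p = 0.00797). How many of all rows passed without mutant 5 is not given here, so that call is no result about lysine tRNAs in particular.

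Lys-TTT-3-1 repeated this pattern in cerebellum. It had 183, 151, 166, 172 and 407 CPM in mutants 1 to 5, against a lowest of 246, a median of 289 and a highest of 357 CPM in wildtype. Again mutants 1 to 4 lay below every wildtype library and mutant 5 above. The log2 difference was −0.43 ± 0.23 (SE; 95% interval −0.92 to 0.05; edgeR adjusted p = 0.288), and −0.78 without mutant 5 (edgeR adjusted p = 0.00185). That call, like the one of Lys-TTT-2, has no share over all rows without mutant 5 beside it. Within the shallow depth class the single mutant had 183 CPM and 5 wildtype libraries a mean of 290 CPM; within the deep class 4 mutants averaged 224 CPM and the single wildtype library had 302 CPM. For Lys-TTT-2 these values were 1790 CPM in the shallow mutant and a mean of 2301 CPM in shallow wildtype, and a mean of 2077 CPM in the deep mutants and 2533 CPM in the deep wildtype library. With depth class as a covariate neither row passed (Lys-TTT-3-1 −0.55, edgeR adjusted p = 0.392; Lys-TTT-2 −0.32, edgeR adjusted p = 0.674). Each class holds a single library of one genotype, and no test was run within a class.

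Mutant 5 also held the highest cerebellum levels of Lys-TTT-1 and Lys-CTT-2. Lys-TTT-1 had 66289, 52918, 42559, 62370 and 102572 CPM in mutants 1 to 5, against a lowest of 62517, a median of 68957 and a highest of 73747 CPM in wildtype (log2 difference −0.08 ± 0.17 SE, edgeR adjusted p = 0.899). Lys-CTT-2 had 4492, 4238, 4772, 5210 and 8456 CPM in mutants 1 to 5, against a lowest of 5180, a median of 5523 and a highest of 7985 CPM in wildtype (−0.14 ± 0.17 SE, edgeR adjusted p = 0.763). Lys-CTT-3 had 15162, 15643, 11324, 15393 and 18945 CPM in mutants 1 to 5, against a lowest of 14057, a median of 14991 and a highest of 24320 CPM in wildtype (−0.10 ± 0.16 SE, edgeR adjusted p = 0.877). The groups overlapped in all 3 rows.

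As a share of the TTT pool, mutant 5 lay within the wildtype range for both Lys-TTT-3-1 and Lys-TTT-2. Lys-TTT-3-1 was 0.268%, 0.277%, 0.376%, 0.268% and 0.381% of Lys-TTT counts in mutants 1 to 5, against a lowest of 0.329%, a median of 0.403% and a highest of 0.474% in wildtype. Mutants 1, 2 and 4 lay below all wildtype libraries, and mutants 3 and 5 within their range. The log2 ratio differed by −0.39 ± 0.13 (SE; limma adjusted p = 0.0735), and passed without mutant 5 (−0.47, limma adjusted p = 0.0207) or without mutant 3 (−0.46, limma adjusted p = 0.0456). The share of all rows called without either library is not given here. Lys-TTT-2 was 2.62%, 2.81%, 3.43%, 2.58% and 3.37% of Lys-TTT in mutants 1 to 5, against a lowest of 2.74%, a median of 3.35% and a highest of 3.59% in wildtype (−0.15 ± 0.10 SE, limma adjusted p = 0.414). No lysine share of 10 passed in cerebellum, where limma called 9.83% of 173 rows; 1 had an unadjusted p under 0.05, Lys-TTT-3-1, and diffSpliceDGE called none.

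The cerebellum sums gave no call either. The Lys-TTT sum was 65324, 55147, 44340, 63867 and 98230 CPM in mutants 1 to 5, against a lowest of 66976, a median of 73400 and a highest of 79509 CPM in wildtype (log2 difference −0.16 ± 0.15 SE; 95% interval −0.48 to 0.16; edgeR adjusted p = 0.593). Mutants 1 to 4 lay below every wildtype library, and without mutant 5 the difference was −0.34 (edgeR adjusted p = 0.0462). How many of all sums passed without mutant 5 is not given here, so that call is no result about lysine in particular. The Lys-CTT sum was 19250, 20591, 16674, 20966 and 25612 CPM in mutants 1 to 5, against a lowest of 20240, a median of 21717 and a highest of 31890 CPM in wildtype (−0.17 ± 0.14 SE; 95% interval −0.45 to 0.11; edgeR adjusted p = 0.496). Across all 71 sums edgeR called 0%, neither lysine sum had an unadjusted p under 0.05, and DESeq2 called none of the 2. Lys-CTT was 22.8%, 27.2%, 27.3%, 24.7% and 20.7% of lysine counts in mutants 1 to 5, against a lowest of 21.5%, a median of 22.8% and a highest of 32.3% in wildtype (0.04 ± 0.15 SE; 95% interval −0.29 to 0.37; limma adjusted p = 0.939; 2.56% of 39 anticodons called).

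Whether the genotype difference itself differed between the tissues was tested in a fit of all 21 libraries. That fit, also used between wildtype tissues, took the libraries as independent. The labels do not say whether cerebrum and cerebellum libraries of one number share an animal, and all 10 such pairs share a sex. Lys-TTT-2 had the lowest p of the lysine rows. Its genotype difference was 0.64 ± 0.26 higher in cerebellum than in cerebrum on the log2 scale (SE; 95% interval 0.11 to 1.17), which did not pass over all rows (edgeR adjusted p = 0.196). Hence the fall of Lys-TTT-2 was called in cerebrum, and a difference between tissues was not. None of the 11 lysine rows passed by edgeR, with 4.90% of 204 rows called and 1 lysine row, Lys-TTT-2, under an unadjusted p of 0.05. DESeq2 also called none, but gave no adjusted p for Lys-CTT-14-1, Lys-CTT-5-1 and Lys-CTT-6-1. With a replicate block Lys-CTT-2 passed narrowly (−0.56, edgeR adjusted p = 0.0498). The sums differed by −0.18 ± 0.22 for Lys-CTT (SE; edgeR adjusted p = 0.872) and −0.07 ± 0.25 for Lys-TTT (SE; edgeR adjusted p = 0.968), where 1.39% of 72 sums were called.

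In cerebrum, mitochondrial lysine tRNA differed between genotypes relative to the pool, while neither nuclear lysine sum did. Against that pool Lys-TTT-MT rose there in mutants, by 0.47 ± 0.10 (log2, SE, edgeR adjusted p = 0.0026), with each of 4 mutants above the highest wildtype library. It moved with the other mitochondrial rows, of which, itself included, 21 of 22 lay above 0 and 15 passed as higher (median 0.42). Over all 208 rows 17 passed as higher (8.17%), these 15 included. In cerebellum Lys-TTT-MT differed by 0.42 ± 0.17 (SE, edgeR adjusted p = 0.170). There 22 of 22 mitochondrial rows lay above 0 (median 0.34) and 0 passed in edgeR, beside 2.48% of all 202 rows. An unadjusted p under 0.05 was found in 15 of them. That count has no share over all rows beside it, so it is no result about mitochondrial rows. The authors scaled libraries in another way: their size factors equal the median of ratios over the 22 mitochondrial rows and the spike-in row to within 0.000137%. That scale sets mitochondrial tRNAs level between libraries by construction, and on it Lys-TTT-MT differed by 0.06 ± 0.09 in cerebrum and 0.05 ± 0.12 in cerebellum (SE). With spike-in scaling the median difference of all rows was −0.36 in cerebrum and −0.59 in cerebellum. No value of Lys-TTT-MT is given on the spike-in scale, so a rise in its amount is not shown.

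On the authors' scale most tRNA rows lay below 0, 190 of 208 in cerebrum, with 12 of 12 lysine rows, and 180 of 202 in cerebellum, with 10 of 10 lysine rows. The median lysine difference was −0.51 in cerebrum, beside −0.43 over all rows, and −0.42 in cerebellum, beside −0.33 over all rows. All rows include the 22 mitochondrial rows, which this scale sets level, so all-row medians and shares on it are not those of the nuclear pool alone. In cerebrum 5 of 12 lysine rows passed as lower in edgeR, against 55.3% of all 208 rows. They were Lys-TTT-2 (−1.29 ± 0.17 SE, adjusted p = 2.74e-05), Lys-TTT-5-1 (−0.74 ± 0.21, adjusted p = 0.0110), Lys-TTT-3-1 (−0.70 ± 0.18, adjusted p = 0.00653), Lys-CTT-1-1 (−0.75 ± 0.28, adjusted p = 0.0372) and Lys-CTT-4-1 (−0.51 ± 0.20, adjusted p = 0.0409). The 3 major rows did not pass there, at −0.37 for Lys-TTT-1, −0.33 for Lys-CTT-3 and −0.16 for Lys-CTT-2. Among the lysine rows, Lys-TTT-2 was again the furthest below the median shift of −0.43; the lowest of all rows was at −2.16.

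In cerebellum 4 of 10 lysine rows passed as lower on that scale, against 15.8% of all 202 rows. These were Lys-TTT-3-1 (−0.83 ± 0.21 SE, edgeR adjusted p = 0.0175), Lys-TTT-2 (−0.60 ± 0.17, adjusted p = 0.0291), Lys-CTT-2 (−0.48 ± 0.16, adjusted p = 0.0453) and Lys-TTT-1 (−0.45 ± 0.14, adjusted p = 0.0416). The Lys-TTT sum passed in cerebellum (−0.46 ± 0.14 SE, edgeR adjusted p = 0.0338; 14.1% of sums called) and not in cerebrum (−0.40 ± 0.21 SE, edgeR adjusted p = 0.124; 45.8% called). With mitochondrial totals 8 of 12 lysine rows passed as lower in cerebrum, beside 53.4% of all rows, and 5 of 10 in cerebellum, beside 26.2%. With spike-in scaling 5 of 12 did in cerebrum, beside 35.6%, and 5 of 10 in cerebellum, beside 41.1%. On the authors' scale the Lys-CTT sum passed in neither, at −0.43 ± 0.16 in cerebellum (SE; edgeR adjusted p = 0.0927) and −0.29 ± 0.18 in cerebrum (SE; edgeR adjusted p = 0.187).

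In the authors' deposited table for cerebrum, made with DESeq2, 6 of 12 lysine rows were lower in mutants at an adjusted p under 0.05, beside 57.4% of all rows. The authors' deposited table gave Lys-TTT-2 a log2 difference of −1.29 (adjusted p = 3.51e-11) and added Lys-CTT-14-1 at −0.85 (adjusted p = 0.0380) to the rows above. That table's deposited sign is wildtype over mutant and is turned here to mutant minus wildtype. The authors' deposited table for cerebellum had 4 of 11 lysine rows lower, beside 24.5% of all rows, and both sums lower, Lys-TTT at −0.46 (adjusted p = 0.00394) and Lys-CTT at −0.43 (adjusted p = 0.0228), beside 18.3% of all sums. For cerebrum the authors' deposited table of sums called neither lysine anticodon, beside 44.4% of all sums lower.

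**Figure D4:**
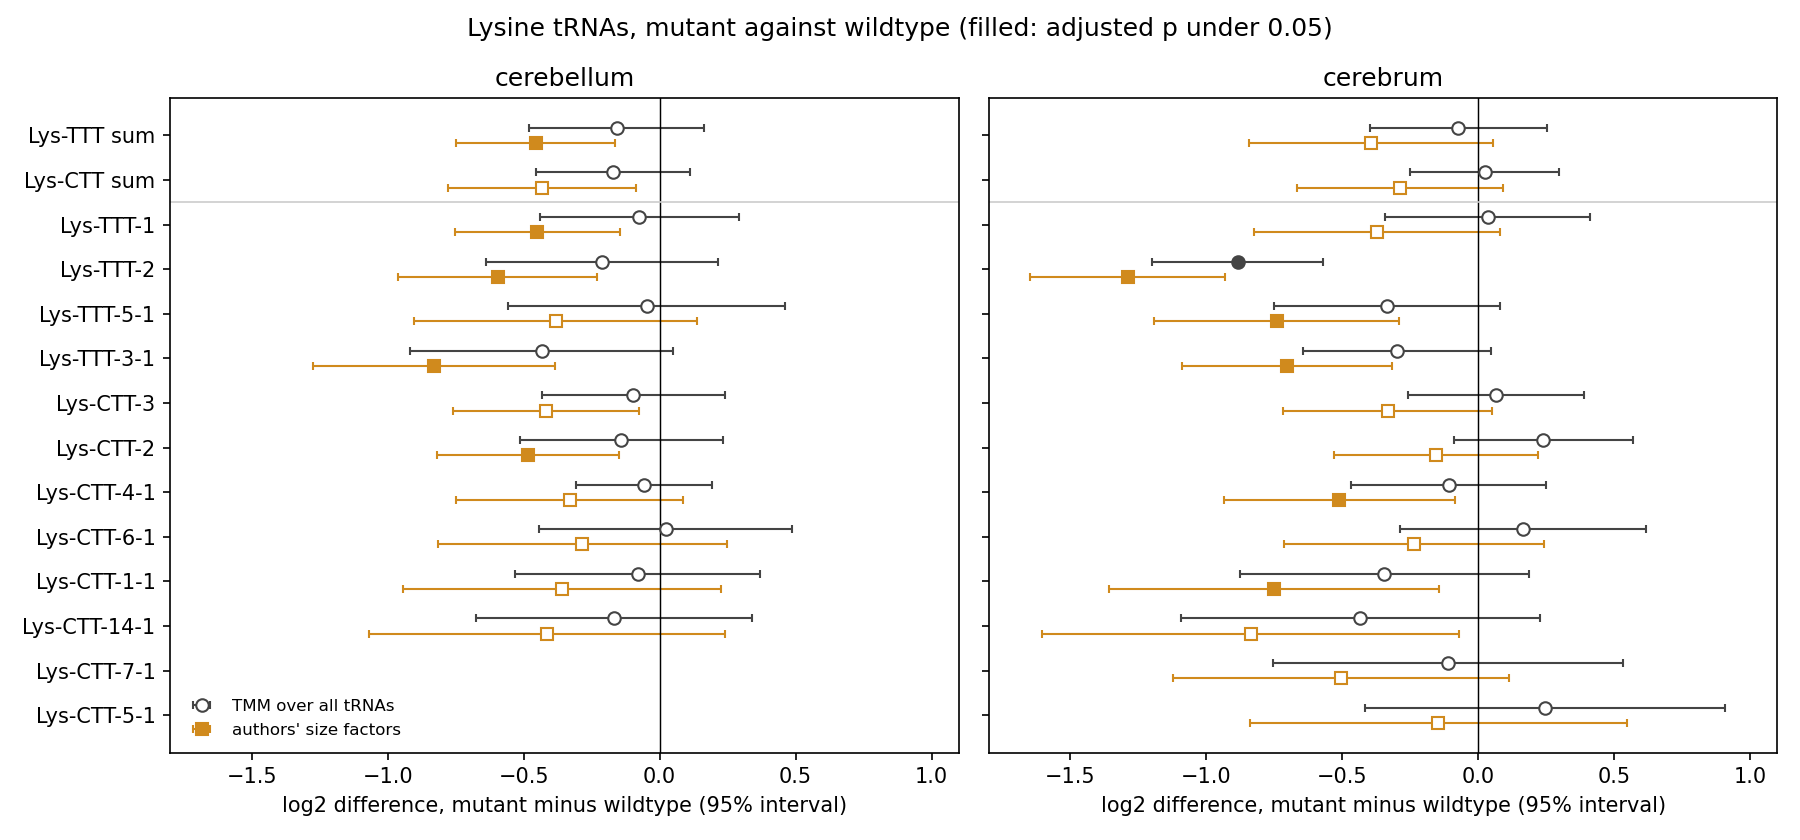
Log2 differences, mutant minus wildtype, with 95% intervals for the lysine sums and rows in cerebellum (left) and cerebrum (right), with TMM over all tRNAs (circles) and with the authors' size factors (squares); filled symbols passed at an adjusted p under 0.05. Squares lie to the left of circles throughout, and Lys-TTT-2 in cerebrum is the row filled on both scales (−0.88 and −1.29).

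Between wildtype tissues, most lysine rows were lower in cerebellum than in cerebrum, and Lys-TTT-3-1 was higher. Depth ran largely together with tissue here. Wildtype cerebellum libraries other than wildtype 5 had 1628057 to 2286338 counts, against 4365247 to 6191461 in wildtype cerebrum. Depth was not used as a covariate between tissues, and its part in these differences was not tested. Of 11 rows, 7 passed as lower and 1 as higher, beside 71.1% called in either direction over all 204 rows (37.7% lower, 33.3% higher). The median of the lysine rows was −0.59, against −0.05 over all rows. With spike-in scaling the median of all rows moved to −0.99, and 10 lysine rows passed as lower and none as higher, beside 67.6% of all rows lower; Lys-TTT-1 was then −1.48, Lys-CTT-2 −1.18 and Lys-CTT-3 −1.07. With all libraries scaled together, Lys-TTT-3-1 had a lowest of 222, a median of 260 and a highest of 320 CPM in cerebellum, against a lowest of 125, a median of 140 and a highest of 166 CPM in cerebrum. The tissues did not overlap, and the log2 difference was 0.87 ± 0.19 (SE; 95% interval 0.48 to 1.26; edgeR adjusted p = 0.000195). With spike-in scaling it was −0.05 (adjusted p = 0.851); the 8 other settings tried kept the call. Lys-TTT-1 had a lowest of 55571, a median of 61926 and a highest of 66109 CPM in cerebellum, against a lowest of 76816, a median of 90978 and a highest of 101462 CPM in cerebrum, again without overlap (−0.56 ± 0.16 SE, edgeR adjusted p = 0.00241). Lys-TTT-2 had a lowest of 1847, a median of 2026 and a highest of 2476 CPM in cerebellum, against a lowest of 2765, a median of 3229 and a highest of 3728 CPM in cerebrum (−0.65 ± 0.17 SE, edgeR adjusted p = 0.00117).

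The largest differences in the other direction were in rare rows, with as few as 12 reads of Lys-CTT-6-1 in cerebellum wildtype 1. Lys-CTT-1-1 differed by −1.16 ± 0.23 (SE; edgeR adjusted p = 4.57e-05), Lys-TTT-5-1 by −1.12 ± 0.20 (SE; adjusted p = 1.98e-05) and Lys-CTT-6-1 by −1.11 ± 0.21 (SE; adjusted p = 3.85e-05). Lys-CTT-4-1 was also lower, by −0.59 ± 0.14 (SE; edgeR adjusted p = 0.000602). Lys-CTT-14-1 passed narrowly (−0.64 ± 0.28 SE, edgeR adjusted p = 0.0393). It lost the call with RLE (adjusted p = 0.0574), with mitochondrial totals (adjusted p = 0.0676) and with DESeq2 (adjusted p = 0.0555), and without any one of cerebrum wildtype 1 or 2 or cerebellum wildtype 2, 4, 5 or 6 (−0.66 to −0.46, adjusted p = 0.0516 to 0.145). Both major CTT rows, Lys-CTT-3 (−0.23 ± 0.14 SE, edgeR adjusted p = 0.149) and Lys-CTT-2 (−0.33 ± 0.16 SE, edgeR adjusted p = 0.0716), did not pass with TMM. Both passed with spike-in scaling, Lys-CTT-2 also with the authors' size factors (−0.39, edgeR adjusted p = 0.0403) and with a replicate block (−0.33). Both passed without cerebellum wildtype 3 (−0.36, edgeR adjusted p = 0.0193, and −0.41, adjusted p = 0.0284). Lys-CTT-2 passed also without cerebrum wildtype 4 (−0.37, edgeR adjusted p = 0.0470).

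Of the 2 sums, Lys-TTT was lower in wildtype cerebellum and Lys-CTT did not pass. The Lys-TTT sum had a lowest of 61697, a median of 67421 and a highest of 73159 CPM in wildtype cerebellum, against a lowest of 78973, a median of 94344 and a highest of 124460 CPM in wildtype cerebrum, with no overlap (−0.54 ± 0.16 SE; 95% interval −0.86 to −0.21; edgeR adjusted p = 0.00329). The Lys-CTT sum had a lowest of 18567, a median of 20060 and a highest of 29377 CPM in cerebellum, against a lowest of 20941, a median of 24775 and a highest of 29538 CPM in cerebrum (−0.24 ± 0.14 SE; 95% interval −0.53 to 0.05; edgeR adjusted p = 0.127), and passed at −0.35 without cerebellum wildtype 3 (edgeR adjusted p = 0.0225) and at −1.11 with spike-in scaling (edgeR adjusted p = 1.00e-07; 68.1% of sums lower). Over all 72 sums 75.0% were called. The test of the CTT to TTT ratio itself did not pass (0.28 ± 0.14 SE; 95% interval −0.02 to 0.58; limma adjusted p = 0.0973; 56.4% of 39 anticodons called), and without cerebrum wildtype 5 it did (0.35, limma adjusted p = 0.0358).

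Inside the TTT pool, Lys-TTT-3-1 took a larger share in cerebellum. It was 0.409% ± 0.0547 (SD, n = 6) of Lys-TTT in wildtype cerebellum and 0.154% ± 0.0303 (SD, n = 6) in wildtype cerebrum, a log2 ratio difference of 1.42 ± 0.13 (SE; limma adjusted p = 3.83e-07; 1.36 to 1.49 when any library was left out). Mutants, which that test did not use, showed the same order, with 0.314% ± 0.0591 (SD, n = 5) in cerebellum and 0.123% ± 0.0124 (SD, n = 4) in cerebrum. Every cerebellum library, of either genotype, lay above every cerebrum library. Lys-TTT-5-1 took a smaller share in cerebellum (−0.55 ± 0.15 SE, limma adjusted p = 0.00486), as did Lys-CTT-6-1 (−0.83 ± 0.15 SE, adjusted p = 0.000231) and Lys-CTT-1-1 (−0.81 ± 0.22 SE, adjusted p = 0.00502) within their CTT pool. Lys-CTT-4-1 passed narrowly (−0.31 ± 0.13 SE, limma adjusted p = 0.0410) and lost the call without any one of 8 libraries, cerebrum wildtype 1 to 4 and cerebellum wildtype 3 to 6 (−0.33 to −0.22, adjusted p = 0.0507 to 0.101), and with diffSpliceDGE (−0.23, adjusted p = 0.0523). The shares of Lys-TTT-1 and Lys-TTT-2 gave −0.01 ± 0.13 and −0.10 ± 0.13 (SE). In all, 5 of 11 lysine shares passed, beside 64.4% of 174 rows.

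**Figure D5:**
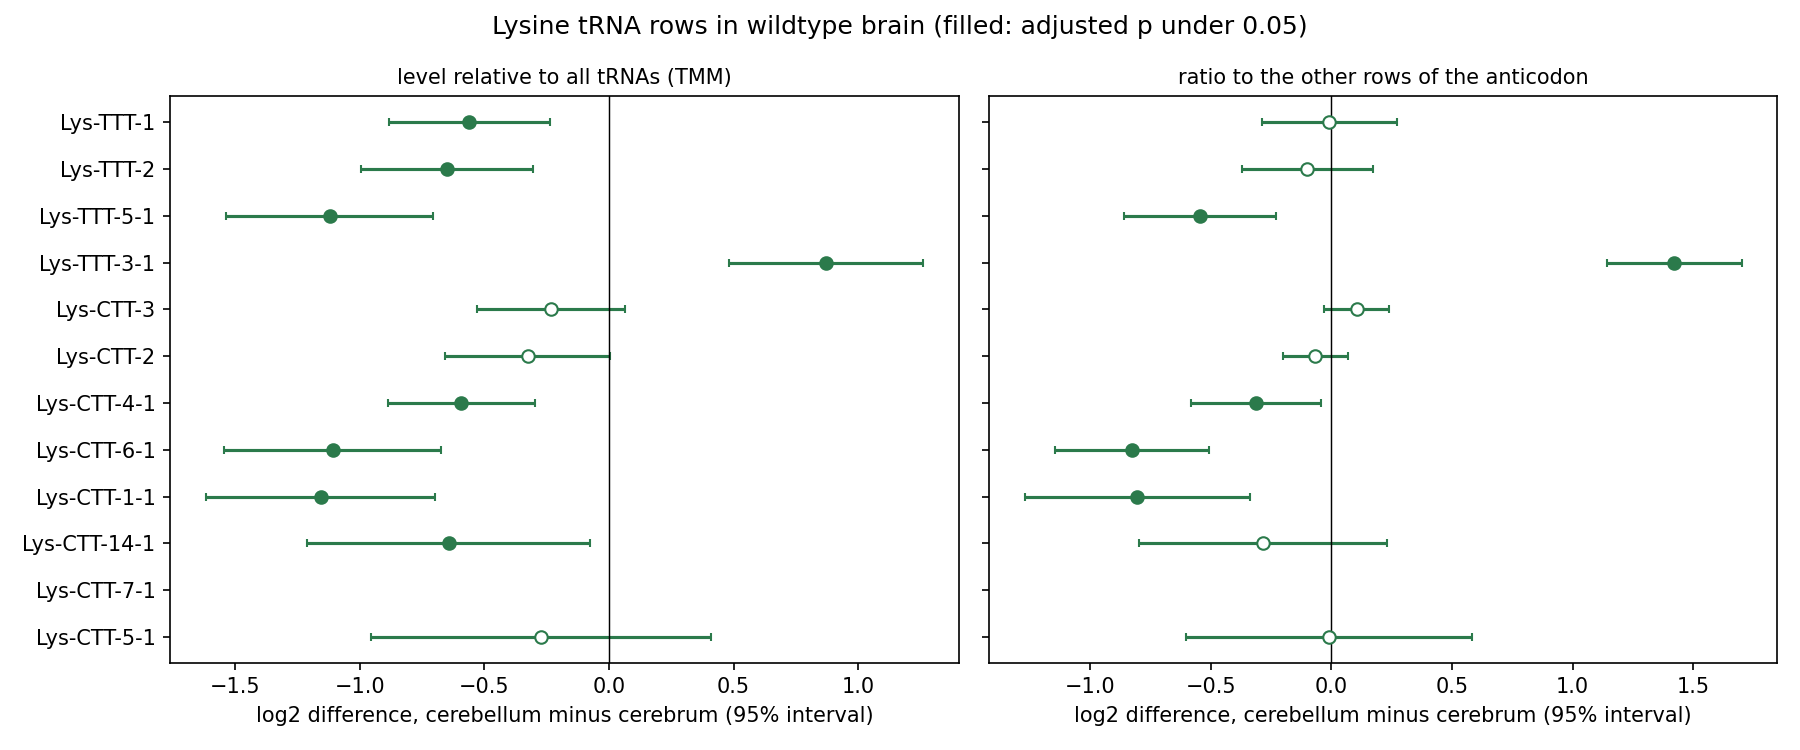
Log2 differences between wildtype tissues, cerebellum minus cerebrum, with 95% intervals, for the level relative to all tRNAs (left) and the ratio to the other rows of the anticodon (right); filled symbols passed at an adjusted p under 0.05. Lys-TTT-3-1 stands alone to the right of 0 among the rows that passed (0.87 and 1.42).

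Gln-TTG and Glu-TTC, whose wobble uridine carries the same thiolated group, were set beside Lys-TTT; the list may not hold every such tRNA. In cerebrum 1 of 7 such rows was lower in mutants, beside 11.5% of all rows, and none higher (median 0.06). In cerebellum 0 of 6 passed in edgeR, beside 2.48% of all rows, and 2 had an unadjusted p under 0.05 (median −0.34). Over both purine-ending codon pairs, glutamine CTG and TTG and glutamate CTC and TTC, 1 of 14 rows was lower in cerebrum, beside 11.5% (median −0.10). For these pairs 0 of 13 rows passed in cerebellum in edgeR, beside 2.48%, and 3 had an unadjusted p under 0.05 (median −0.32). The counts of unadjusted p have no share over all rows beside them, so they are no result about these groups. On the authors' scale 3 of 7 rows of the thiolated group and 9 of 14 rows of the codon pairs were lower in cerebrum, beside 55.3% of all rows, and 4 of 6 and 6 of 13 rows in cerebellum, beside 15.8% of all rows. Between wildtype tissues 3 of 7 rows of the thiolated group were lower and 1 higher in cerebellum than in cerebrum, beside 37.7% lower and 33.3% higher over all rows.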

How the data were processed

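QuantM-tRNA-seq libraries of cerebrum and cerebellum were grouped by the tissue and genotype labels. The submitters' processing notes list cutadapt, Bowtie2, featureCounts, DESeq2 and the mm10 build; the sources used here do not give versions, settings or how reads fitting several isodecoders were assigned. The deposited count table of each tissue holds raw counts per tRNA. The authors' deposited tables of comparisons hold log2 fold changes, p-values, a test statistic (a score) and a mean signal (counts over size factors, averaged within a tissue), per the file headers. Columns were matched to samples by their names.

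The spike-in row was kept out of totals and tests. Rows and anticodon sums were tested with edgeR 4.0.16 in R 4.3.3 (TMM, filterByExpr with a minimum count of 10, robust quasi-likelihood fits, Benjamini-Hochberg adjustment over all rows, threshold 0.05). CPM levels come from the same scaling. Shares were tested with limma 3.58.1 on log2 ratios within a library, 0.5 added to both sides. Each tissue was fitted alone; tissue comparisons and the difference between tissues used all 21 libraries and 204 shared rows, shares the 12 wildtype libraries. The edgeR row tests and the limma share tests of mutant against wildtype were tried on simulated data for each tissue. The other steps were not. Every lysine row and sum was named; members and lists were chosen with earlier results of these data known. Alternatives were RLE and DESeq2 1.42.0, mitochondrial and spike-in scaling, other filters, a prior count of 5, diffSpliceDGE, sex, depth class, a replicate block and leaving out each library; the authors' size factors, and leaving out cerebellum mutant 1 with wildtype 5, were added after seeing the data. Same-numbered libraries of both genotypes correlated by −0.31 to 0.54, over 0.1 in 4 of 9 pairs. With no reference value beside them, these correlations cannot decide whether such libraries share a batch or litter. The main fits did not use the numbers as pairs. The lowest chi-square per degree of freedom between replicates was 44.1 over 46 pairs, above sampling noise.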

Additional observations from a re-analysis of the deposited data

Results flagged for a closer look

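Of 108 groups of 4 to 6 libraries examined, 11 held a lysine value far from the rest of its group; chance gives about 1 in 20, and the values within a library are not independent. In cerebellum mutant 5, Lys-TTT-2 had 3595 CPM with the nearest other mutant at 1790, Lys-TTT-3-1 had 407 CPM with the nearest at 183, and Lys-CTT-2 had 8456 CPM with the nearest at 5210. In cerebellum wildtype 3, Lys-CTT-3 had 24320 CPM with the nearest other wildtype library at 15604, the Lys-CTT sum had 31890 CPM with the nearest at 22893, Lys-CTT was 32.3% of lysine counts with the nearest at 23.6%, and Lys-CTT-4-1 was 1.68% of Lys-CTT with the nearest at 2.04%. In cerebellum wildtype 4, Lys-CTT-5-1 had 6.32 CPM with the nearest at 3.43, and 0.0314% of Lys-CTT with the nearest at 0.0163%, on counts too low to pass the filter. In cerebrum mutant 2, Lys-CTT-2 was 26.8% of Lys-CTT with the nearest other mutant at 30.5%, and Lys-CTT-3 was 70.7% with the nearest at 67.1%. The part of depth, RNA quality or handling in these libraries was not tested.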

How the results depend on the processing

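Of the lysine results, the fall of Lys-TTT-2 in cerebrum kept its call under all 9 other settings (−1.29 to −0.83) and when any library was left out. With few libraries per group, small differences were not detectable at this depth and spread, and rows with counts near 10 were the least precise. The cause of the changes below was not tested, except that mitochondrial, spike-in and authors' scaling set the reference outside the nuclear pool. Where a count of calls below has no share over all rows beside it, it is no result about lysine tRNAs in particular. In cerebrum 1 lysine row passed as lower with TMM, beside 11.5% of all rows, and 8 with mitochondrial totals, beside 53.4%. There 5 passed with spike-in scaling, beside 35.6%, and 5 with the authors' size factors, beside 55.3%. In cerebellum 0 passed with TMM, beside 2.48% in either direction. As lower, 5 passed there with mitochondrial totals (26.2% of all rows), 5 with spike-in scaling (41.1%) and 4 with the authors' size factors (15.8%). With mitochondrial totals the Lys-TTT sum passed in cerebrum (−0.39) and cerebellum (−0.49), 1 sum of 2 in each; with the authors' size factors it passed in cerebellum (−0.46), and with spike-in scaling the Lys-CTT sum did (−0.70), 1 of 2 each. Spike-in scaling gave 2 lower lysine sums between tissues. RLE, mitochondrial totals and DESeq2 ended the call of Lys-CTT-14-1 between tissues.

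For mutant against wildtype, the replicate block joined same-numbered libraries of different animals, some of different sex. Its calls there rest on a pairing that the labels do not give. In comparisons of tissues it joined same-numbered libraries of one genotype. The replicate block gave 3 lysine rows in cerebrum (Lys-TTT-2 −0.92 and Lys-CTT-14-1 −0.71 lower, Lys-CTT-2 0.31 higher), 5 shares there, 1 row for the difference between tissues (Lys-CTT-2 −0.56, adjusted p = 0.0498), Lys-CTT-2 between wildtype tissues (−0.33), and changed no other call of the sums or of cerebellum. It turned Lys-CTT-7-1 to 0.0067 and Lys-TTT-1 to −0.026 in cerebrum, Lys-CTT-6-1 to −0.011 in cerebellum and Lys-CTT-5-1 to 0.058 for the difference between tissues; of the shares, it turned Lys-CTT-5-1 to −0.085 and Lys-CTT-6-1 to −0.033 in cerebrum and Lys-CTT-1-1 to 0.023 in cerebellum. Of cerebrum and cerebellum libraries with one number, 5 of 10 correlated over 0.1 and 4 best with their own number; all 10 pairs share a sex in the labels.

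All other turns of sign were in values that had not passed, except Lys-TTT-3-1 between tissues with spike-in scaling (−0.048). In cerebrum, mitochondrial, spike-in and authors' scaling, in this order, gave −0.16, −0.15 and −0.16 for Lys-CTT-2, −0.33, −0.32 and −0.33 for Lys-CTT-3, −0.15, −0.14 and −0.15 for Lys-CTT-5-1, −0.24, −0.20 and −0.24 for Lys-CTT-6-1, −0.37, −0.34 and −0.37 for Lys-TTT-1, and −0.29, −0.27 and −0.29 for the Lys-CTT sum. That sum was −0.052 with RLE, −0.052 with DESeq2 and −0.043 with a mean count of at least 50. In cerebellum the same scalings gave −0.32, −0.53 and −0.28 for Lys-CTT-6-1, and sex as a covariate −0.039. Depth class as a covariate gave 0.0044 for Lys-CTT-4-1, and leaving out mutant 1 with wildtype 5 gave 0.0072 for Lys-CTT-1-1 and 0.018 for Lys-TTT-5-1. For the difference between tissues, Lys-CTT-4-1 was −0.16 with spike-in scaling and −0.0013 with a mean count of at least 50. Among shares, a prior count of 5 gave −0.032 for Lys-CTT-5-1 in cerebrum, −0.020 for Lys-CTT-6-1 and −0.047 for Lys-TTT-5-1 in cerebellum, and 0.30 for Lys-CTT-5-1 between tissues. The cerebellum share of Lys-TTT-5-1 was −0.036 with sex and −0.13 with depth class; that of Lys-CTT-1-1 was 0.014 with diffSpliceDGE and 0.077 without mutant 1 and wildtype 5. diffSpliceDGE called 1 share in cerebrum.

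Leaving out each library gave these ranges. Rows passing in cerebellum were 0 to 2 and sums 0 to 1; the Lys-TTT sum there was −0.34 to −0.046. Between tissues 1 to 2 sums and 0 to 1 CTT to TTT ratios passed; shares passing were 2 to 5 in cerebrum, the highest without wildtype 5 and 4 without mutant 2, and 0 to 1 in cerebellum. In cerebrum the ranges were −0.10 to 0.18 for Lys-CTT-3, −0.10 to 0.44 for Lys-CTT-5-1, −0.052 to 0.30 for Lys-CTT-6-1, −0.10 to 0.18 for Lys-TTT-1, −0.19 to 0.049 for Lys-CTT-7-1, −0.16 to 0.11 for the Lys-CTT sum, −0.23 to 0.068 for the Lys-TTT sum and −0.034 to 0.18 for the CTT to TTT ratio. In cerebellum they were −0.26 to 0.047 for Lys-TTT-5-1, −0.27 to 0.047 for Lys-TTT-1, −0.11 to 0.029 for Lys-CTT-4-1, −0.052 to 0.16 for Lys-CTT-6-1, −0.16 to 0.046 for Lys-CTT-3 and −0.014 to 0.16 for the ratio. For the difference between tissues they were −0.30 to 0.035 for Lys-CTT-3, −0.53 to 0.080 for Lys-CTT-5-1, −0.30 to 0.10 for Lys-CTT-6-1, −0.36 to 0.062 for Lys-TTT-1, −0.52 to 0.021 for Lys-TTT-3-1, −0.092 to 0.25 for Lys-CTT-4-1, −0.27 to 0.0072 for the Lys-CTT sum and −0.26 to 0.065 for the Lys-TTT sum. Shares in cerebrum ranged over −0.12 to 0.20 for Lys-CTT-5-1 and −0.094 to 0.13 for Lys-CTT-6-1; in cerebellum over −0.18 to 0.057 for Lys-CTT-1-1, −0.18 to 0.0024 for Lys-CTT-2, −0.010 to 0.15 for Lys-CTT-3, −0.093 to 0.16 for Lys-TTT-5-1, −0.10 to 0.22 for Lys-CTT-4-1 and −0.32 to 0.11 for Lys-CTT-14-1; and between tissues over −0.083 to 0.070 for Lys-TTT-1 and −0.22 to 0.15 for Lys-CTT-5-1.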

Other observations

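Across all 21 libraries and 71 other anticodons, the pools whose log2 level followed Lys-CTT most closely were Arg-TCT (Pearson r = 0.92), Asp-GTC (r = 0.87) and Arg-CCT (r = 0.82), and those for Lys-TTT were Pro-TGG (r = 0.86), Arg-CCT (r = 0.84) and Gln-TTG (r = 0.84). Lys-CTT and Lys-TTT followed each other at r = 0.75. Lys-TTT-2 was most like Thr-AGT-6-1 (r = 0.80), Thr-AGT-5-1 (r = 0.77) and Arg-TCT-2-1 (r = 0.73) among 203 other rows. These values describe the libraries; the points share library scaling, depth and the tissue split, and no p is given.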
